A study of Mus musculus with 67 samples.

Results

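The RNA that came down with an isotype IgG1 antibody from whole-brain homogenate was compared between mice given lipopolysaccharide (LPS) and mice given PBS. These control pull-downs are 7 of the 67 libraries in the series, 4 from LPS mice and 3 from PBS mice, and were taken by their labels from the experiment that holds 28 libraries. All mice were C57BL/6J with the genotype written CX3CR1CreER/WT RLP22HA/HA, in which tamoxifen switches on a haemagglutinin (HA) tag on a ribosomal protein in cells that express Cx3cr1, in brain mainly microglia. Every mouse had received 5 mg of tamoxifen by gavage, 4 times on alternate days, at 4 to 6 weeks of age. LPS was injected into the peritoneum at 2.5 mg/kg and the mice were killed 3 h later; a time for the PBS mice is not given in the sources used here. Frozen brain was homogenised, cleared of debris by centrifugation and incubated for 4 h with 1 µg of mouse IgG1, or with 125 µg of anti-HA for the tagged-ribosome pull-down. The labels call the cell type of all these libraries microglia. The submitters' design text says that each experiment used separate mice as its biological repeats.

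IgG1 does not recognise the HA tag, so the RNA in these libraries is what the antibody and beads retain without the tag. LPS is a cell wall component of Gram-negative bacteria that is sensed by a Toll-like receptor with the co-receptor CD14. An arm of that receptor acts through the adaptor MyD88 and the transcription factor NF-kB on cytokine and chemokine genes, and another leads to interferon, which acts through STAT proteins on a large set of antiviral genes. When LPS is given in the periphery, the cells of brain vessels, perivascular cells, astrocytes and microglia are all known to take part in the brain's response.

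The IgG1 libraries carried RNA of all the main brain cell types, microglia among them, which goes against their label of microglia alone. Summed over 28 neuronal marker genes, the level was 10510 to 14220 CPM (counts scaled by TMM-adjusted library size) in PBS and 11240 to 13030 CPM in LPS. Over 22 astrocyte markers it was 5966 to 6088 and 5535 to 6274 CPM, and over 19 oligodendrocyte markers 5112 to 5440 and 4747 to 5894 CPM. The 19 microglial markers summed to 1084 to 1458 CPM in PBS and 1141 to 1806 CPM in LPS, against 31950 to 42610 CPM in the anti-HA libraries. In another experiment of the series, normalised separately, the same list was at 709.7 to 763 CPM in unfractionated homogenate and 622 to 769.5 CPM in IgG libraries. None of the 88 genes on these 4 lists passed the edgeR test between LPS and PBS. As 1.15% of all 11444 genes tested did, a count of none is near that share. Of the 88, 14 had an unadjusted p under 0.05, beside 1339 of the 11444, and DESeq2 called 1, an astrocyte marker. Across 10248 genes, the mean profile of the PBS IgG1 libraries had a Spearman correlation of 0.861 with unfractionated brain homogenate from another experiment of the series, and the anti-HA libraries had 0.597. These are descriptions across genes, which are not replicates, and the 2 tables were normalised separately. The libraries held 610257 to 1183677 counts, the fewest in LPS replicate 3, so a single read there was worth over 1 CPM. In bulk RNA a change in the number of cells of a type and a change in RNA per cell cannot be told apart.

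**Figure D1:**
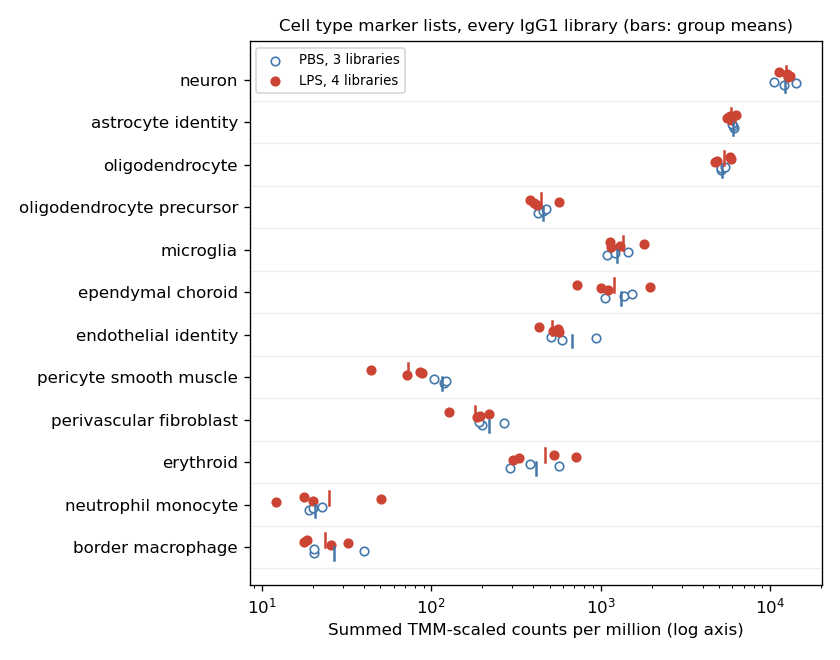
Summed CPM of 12 cell type marker lists in each IgG1 library, on a log axis, with open points for the 3 PBS libraries, filled points for the 4 LPS libraries and bars for the group means. The neuronal, astrocyte and oligodendrocyte lists lie highest and overlap between the groups. The pericyte and smooth muscle list is the one of the 12 with all LPS libraries (44.4 to 88.2) below all PBS libraries (104 to 122). It sums 4 tested genes, none of them called, and 4.80% of all single genes tested lie apart in that direction.

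At 3 h after LPS, members of the interferon response, chemokines and regulators of NF-kB and STAT signalling rose in the IgG1 libraries, as did the acute-phase gene Saa3 and the colony-stimulating factor gene Csf3, and the tight junction gene Cldn5 fell. Of 11444 genes tested with edgeR's quasi-likelihood test, 132 (1.15%) passed an adjusted p of 0.05, with 115 higher (1.00%) and 17 lower (0.149%) in LPS. At an unadjusted p under 0.05 there were 1339 genes. The median log2 fold change was 1.55 over the 115 rises and -1.03 over the 17 falls, which the selection fixes in sign, and -0.02 over all genes tested. In 108 of the 115 every LPS library was above every PBS library. The groups did not overlap in 9.52% of all genes tested, with LPS above in 4.72%. Of the 17 falls, 14 showed no overlap, beside 4.80% of all genes in that direction.

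The rises and the falls differed in how far they rested on single libraries. When each of the 7 libraries was left out in turn, 58 of the 115 rises passed in all 7 fits, whereas of the 17 falls Cldn5 alone did. The number of genes called went from 132 to 86 without LPS replicate 2, and rises went from 115 to 75 without PBS replicate 1. The number of falls was 47 without LPS replicate 1, 4 without LPS replicate 2 and 10 without PBS replicate 3. A fit to the 7 IgG1 libraries alone called 84 genes, 79 of them higher, and DESeq2 called 130 higher and 6 lower.

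**Figure D2:**
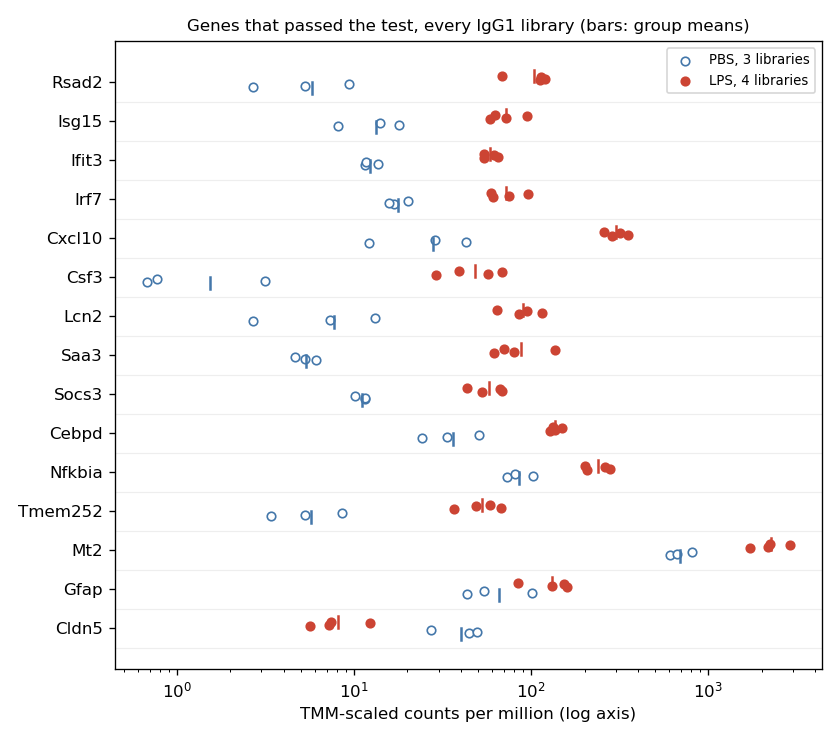
CPM of 15 genes that passed the test, in each IgG1 library, on a log axis, with open points for PBS, filled points for LPS and bars for the group means. Apart from Gfap, whose lowest LPS library lies among the PBS libraries, no gene shown has overlapping groups, and Cldn5 is the one that is lower in LPS.

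Interferon-stimulated genes made up the largest group of rises. Of 49 tested members of the interferon-stimulated list 18 rose and none fell, beside 1.00% and 0.149% of all genes tested. The list median log2 fold change was 1.36, against -0.02 over all genes. Rsad2, which encodes the antiviral enzyme viperin, stood at 2.70, 5.25 and 9.32 CPM in the PBS libraries and at 113, 120, 113 and 68.0 CPM in the LPS libraries. All 4 LPS libraries were far above the PBS libraries, and the log2 fold change was 4.16 ± 0.39 (SE, edgeR adjusted p = 6.15e-09). Isg15, a ubiquitin-like protein that is attached to other proteins after interferon, went from 8.10, 17.9 and 13.98 CPM to 58.9, 72.2, 94.1 and 62.1 CPM, again without overlap. Its log2 fold change was 2.45 ± 0.26 (edgeR adjusted p = 1.01e-09). Ifit3, of the family of RNA-binding antiviral proteins, held 11.5, 13.7 and 11.7 CPM in PBS and 53.9, 64.9, 61.4 and 54.0 CPM in LPS. The transcription factor Irf7, which amplifies interferon production, rose by a log2 fold change of 2.00 ± 0.23, from a mean of 17.6 ± 2.30 CPM (SD, n = 3) to 72.5 ± 16.8 CPM (SD, n = 4), with an edgeR adjusted p of 6.01e-09. Oasl1 rose by 3.80 ± 0.58 on the log2 scale, from 0.743 ± 0.779 CPM to 12.8 ± 1.90 CPM. Further members that rose were Ifit1, Ifit2, Ifit3b, Ifitm2, Ifitm3, Mx1, Mx2, Stat2, Parp9, Parp14, Helz2, Rtp4 and Trim30a. Of these, Mx1, Stat2, Parp9, Helz2, Rtp4 and Trim30a did not pass in 2 to 4 of the 7 fits that left out a library (adjusted p up to 0.194). Counts of near-identical family members such as Ifit3 and Ifit3b can share reads, so their separate values are uncertain.

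The interferon-inducible GTPases, which act against intracellular pathogens, gave the highest share of members called. Of 11 tested, 8 rose (Gbp2, Gbp3, Gbp5, Gbp7, Igtp, Iigp1, Irgm1 and Ifi47), beside 1.00% of all genes tested. None fell, and the median log2 fold change was 2.22. Gbp2 was at 4.73, 1.05 and 4.66 CPM in PBS and 24.8, 26.5, 34.1 and 12.6 CPM in LPS, with no overlap. Its log2 fold change was 2.62 ± 0.39 (edgeR adjusted p = 4.11e-06). Gbp5 went from 1.06 ± 0.287 to 14.6 ± 4.07 CPM and Iigp1 from 1.44 ± 0.72 to 15.4 ± 4.46 CPM. Gbp7 and Irgm1 did not pass without PBS replicate 1 (edgeR adjusted p = 0.118 and 0.148), and Ifi47, with 0.739 CPM in LPS replicate 4, passed in 1 of the 7 fits that left out a library, with adjusted p up to 0.228. Genes of this family lie close together and resemble each other, so reads can be split between them. In the antigen presentation list 2 of 22 tested genes rose, Psmb8 of the immunoproteasome and the peptide transporter Tap1, with a list median of 0.19. Psmb8 did not pass without PBS replicate 1 (adjusted p = 0.128), and Tap1 did not without LPS replicate 1 or 2 or PBS replicate 1 or 3 (adjusted p up to 0.148).

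The promoters of 6 of the rising genes are shown because they carry letters known to be bound by the interferon, NF-kB, STAT and C/EBP factors named here. They are the 250 bases before the first listed RefSeq start (GRCm38.p6, all on the minus strand and printed 5′ to 3′ along the gene), at chr4:156200819-156201068 for Isg15, chr12:26456453-26456702 for Rsad2, chr5:92348890-92349139 for Cxcl10, chr12:55492648-55492897 for Nfkbia, chr11:117969367-117969616 for Socs3 and chr2:32387740-32387989 for Lcn2. Capitals mark GAAA, any 2 bases and GAAA, the core of the interferon-stimulated response element, in Isg15, Rsad2 and Cxcl10, GGGA, any base, TT, any base and CC, a kB site, in Cxcl10 and Nfkbia, TTCNNNGAA, a STAT site, in Socs3, and TTGCNNAA, a C/EBP site, in Lcn2, on either strand.
Isg15: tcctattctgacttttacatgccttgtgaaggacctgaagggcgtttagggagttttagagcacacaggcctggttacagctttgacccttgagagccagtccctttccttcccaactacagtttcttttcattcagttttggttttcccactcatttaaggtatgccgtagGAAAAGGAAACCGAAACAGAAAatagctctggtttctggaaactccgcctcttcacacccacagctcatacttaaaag
Rsad2: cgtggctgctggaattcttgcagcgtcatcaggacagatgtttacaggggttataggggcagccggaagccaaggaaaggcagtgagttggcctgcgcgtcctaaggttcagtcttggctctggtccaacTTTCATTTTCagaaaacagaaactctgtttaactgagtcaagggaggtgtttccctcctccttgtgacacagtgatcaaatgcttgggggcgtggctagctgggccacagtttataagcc
Cxcl10: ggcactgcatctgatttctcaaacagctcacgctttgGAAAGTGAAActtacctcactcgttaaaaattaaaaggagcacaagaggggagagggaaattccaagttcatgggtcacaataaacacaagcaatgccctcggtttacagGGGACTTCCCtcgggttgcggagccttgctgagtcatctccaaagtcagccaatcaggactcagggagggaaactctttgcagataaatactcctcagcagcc
Nfkbia: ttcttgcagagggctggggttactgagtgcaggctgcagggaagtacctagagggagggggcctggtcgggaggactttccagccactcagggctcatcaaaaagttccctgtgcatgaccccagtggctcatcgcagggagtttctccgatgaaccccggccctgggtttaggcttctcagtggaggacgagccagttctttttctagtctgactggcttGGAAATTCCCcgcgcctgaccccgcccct
Socs3: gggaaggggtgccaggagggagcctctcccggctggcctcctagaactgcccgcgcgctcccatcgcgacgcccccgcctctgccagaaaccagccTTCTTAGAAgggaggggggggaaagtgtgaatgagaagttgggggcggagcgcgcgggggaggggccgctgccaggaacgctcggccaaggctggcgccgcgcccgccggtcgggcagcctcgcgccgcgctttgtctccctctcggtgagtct
Lcn2: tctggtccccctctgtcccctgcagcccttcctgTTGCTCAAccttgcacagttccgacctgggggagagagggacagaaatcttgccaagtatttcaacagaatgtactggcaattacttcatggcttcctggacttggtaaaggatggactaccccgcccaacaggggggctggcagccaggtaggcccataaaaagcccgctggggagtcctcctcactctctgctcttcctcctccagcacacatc
Isg15 holds 3 overlapping matches, the first base of the first lying 78 bases before the start, Rsad2 holds 1 match at 120 bases on the opposite strand, and Cxcl10 has the interferon element at 213 and the kB site at 103 bases before the start. Of the 115 rising genes 94 (81.7%) had a promoter in the RefSeq table. The interferon element was found in 20 of these 94 (21.3%), against 821 of all 27025 genes in the table (3.04%). The kB site was found in 8 (8.51%, against 0.94% of all), the STAT site in 17 (18.1%, against 7.18%) and the C/EBP site in 12 (12.8%, against 9.55%). The core of the glucocorticoid response element is G, any base, ACA, any 3 bases, TGT, any base and C. It was found in 1 of the 94, Mt1 (1.06%, against 0.381% of all). The letters CACGTG, the E-box, were found in 7 (7.45%, against 6.05% of all). The rises came from the tested genes, of which 9114 had a promoter. Among these 9114 the interferon element was found in 2.69%, the kB site in 1.02% and the STAT site in 5.64%. The C/EBP site was found in 6.98% of them, the glucocorticoid element in 0.197% and the E-box in 8.73%. Of the 17 falling genes 10 were matched (58.8%), too few for a comparison. Among the 10 falling genes the C/EBP site was found in 3, and the interferon, kB and STAT sites in none. A match is a run of letters in this window and was not tested as a binding site.

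Chemokines rose in the IgG1 libraries. Of 17 tested 6 rose (Cxcl1, Cxcl2, Cxcl9, Cxcl10, Cxcl16 and Ccl2) and none fell, beside 1.00% and 0.149% of all genes tested. The median over the 17 was 1.97. DESeq2 called 10 of these 17 genes, and the fit to the 7 IgG1 libraries alone called 3. Cxcl10, which attracts activated T cells, stood at 12.2, 43.1 and 28.7 CPM in PBS and at 284, 353, 318 and 257 CPM in LPS, so that the lowest LPS library was well above the highest PBS library. Its log2 fold change was 3.50 ± 0.43 (edgeR adjusted p = 2.65e-05). The neutrophil attractant Cxcl1 went from 0.675, 3.15 and 3.11 CPM to 14.9, 27.3, 32.7 and 22.2 CPM, a log2 fold change of 3.37 ± 0.55 with an edgeR adjusted p of 7.37e-05. Ccl2, which attracts monocytes, rose by 2.54 ± 0.43. Cxcl2 had no read in PBS and 33 in LPS, at least 8.63-fold higher per library size when 3 reads in the PBS group are taken as the floor, and did not pass without LPS replicate 2 or PBS replicate 1 or 3 (adjusted p up to 0.0943). Cxcl9 did not pass without LPS replicate 1 or PBS replicate 1 or 2 (adjusted p up to 0.174), and Cxcl16 did not without LPS replicate 2 or 3 or PBS replicate 1 (adjusted p up to 0.315).

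Csf3, the growth factor that drives neutrophil production, had the largest rise among the genes at 10 CPM or more. It was at 0.675, 3.15 and 0.777 CPM in PBS (5 reads in all) and at 29.1, 56.9, 68.2 and 39.2 CPM in LPS (215 reads). The groups were widely apart, and the log2 fold change was 4.99 ± 0.62 (edgeR adjusted p = 3.36e-06). Of the 22 tested cytokines and receptors 3 rose, Csf3, Il4ra and Tnfrsf1a, beside 1.00% of all genes tested. Tnfrsf1a did not pass without PBS replicate 1 or 2 (adjusted p up to 0.106). The inflammatory cytokine gene Il1b had 2.03, 1.05 and 3.88 CPM in PBS and 9.93, 14.4, 6.82 and 6.65 CPM in LPS, a log2 difference of 1.95 ± 0.65 that missed the threshold (edgeR adjusted p = 0.177) but passed without the filter on low counts (0.00525). Tnf had at most 2.33 CPM in PBS and 0 to 8.82 CPM in LPS, and Il1a at most 2.73 CPM in any library, with edgeR adjusted p of 0.631 and 0.675.

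Of the 2 acute-phase genes tested Saa3 rose, and Hp, which encodes haptoglobin, had a log2 difference of 0.52 that was not called. Saa3, an acute-phase apolipoprotein made outside the liver, went from 6.08, 5.26 and 4.66 CPM to 61.7, 80.2, 136 and 70.2 CPM, a log2 fold change of 3.95 ± 0.65 (edgeR adjusted p = 0.00124). The iron-siderophore binding protein Lcn2 went from 2.70, 7.36 and 13.2 CPM to 85.8, 115, 94.1 and 64.3 CPM, a log2 fold change of 3.54 ± 0.37 (edgeR adjusted p = 5.80e-08). Neither gene had overlapping groups. The protease inhibitor gene Serpina3f was at 0, 0 and 0.777 CPM in PBS and at 9.22, 11.2, 12.3 and 9.61 CPM in LPS, and as a member of a cluster of near-identical copies its counts are uncertain. Neutrophil and monocyte markers summed to 18.9 to 22.5 CPM in PBS and 12.1 to 50.5 CPM in LPS, highest in LPS replicate 3, which also had the highest Saa3; their part in the rise was not tested. None of the 6 tested markers of that list was called, where 1.15% of all genes tested were, so a count of none is near that share. The erythroid list was at 293 to 564 CPM in PBS and 306 to 711 CPM in LPS, also highest in LPS replicate 3.

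Regulators of signalling rose as well. In the STAT3, SOCS and C/EBP list 5 of 14 tested genes rose (Socs3, Cebpb, Cebpd, Ptpn1 and Stat3) and none fell. The share of all genes tested that rose was 1.00%, and the list median was 0.62. Socs3, a feedback inhibitor of cytokine receptor signalling, was at 11.5, 11.6 and 10.1 CPM in PBS and 52.5, 68.2, 66.8 and 43.6 CPM in LPS, without overlap. Its log2 fold change was 2.36 ± 0.26 (edgeR adjusted p = 1.20e-09). The transcription factor Cebpd rose from 24.3, 33.6 and 50.5 CPM to 127, 136, 150 and 133 CPM. Stat3 did not pass without PBS replicate 3 (adjusted p = 0.0778). Of 21 tested genes of the NF-kB pathway 3 rose (Nfkbia, Nfkb2 and Bcl3), with a list median of 1.05. Nfkbia, the inhibitor that NF-kB itself induces, went from 72.9, 103 and 80.8 CPM to 208, 277, 262 and 201 CPM, a log2 fold change of 1.48 ± 0.19 (edgeR adjusted p = 1.73e-07). Of 12 genes of Toll-like receptor signalling 3 rose, Tlr2, the LPS co-receptor Cd14 and the adaptor Myd88, with a median of 0.89. Myd88 did not pass without LPS replicate 1 or 2 or PBS replicate 1 or 2 (adjusted p up to 0.201). Of 30 immediate-early genes 2 rose, Maff and Ier3, beside 1.00% of all genes tested, and the list median was 0.02. Maff missed the threshold with DESeq2 (adjusted p = 0.067). Fos was at 44.3 to 69.4 CPM in PBS and 29.8 to 75.0 CPM in LPS.

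**Figure D3:**
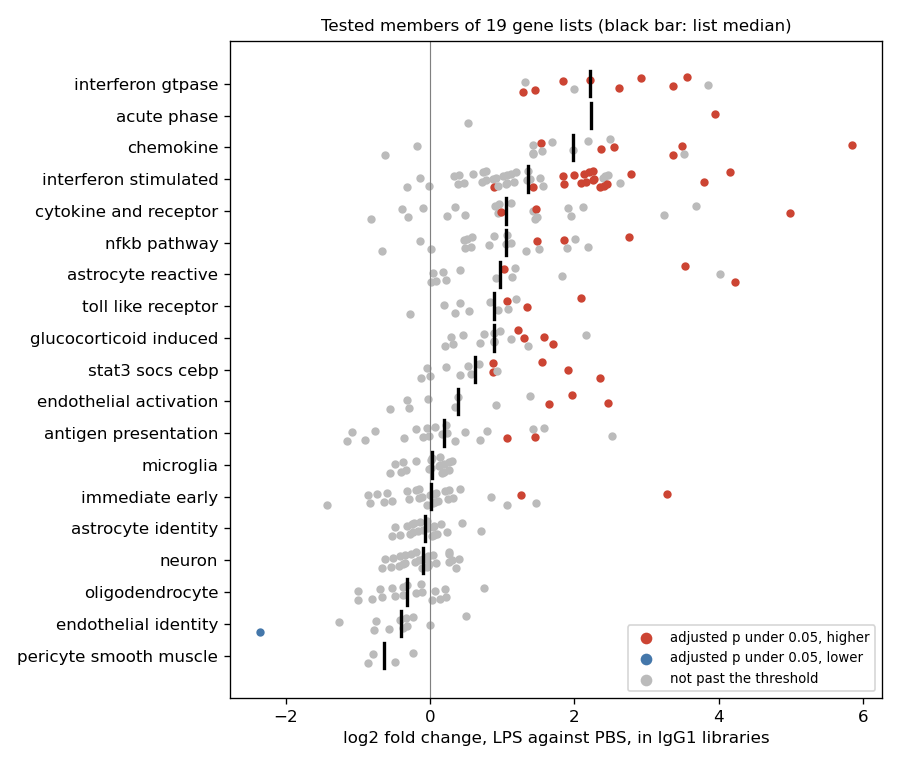
Log2 fold change between LPS and PBS in the IgG1 libraries for each tested member of 19 gene lists, with red points for rises and blue for falls past an edgeR adjusted p of 0.05, grey points for the rest and a black bar at each list's median. The interferon-inducible GTPases have the second highest median (2.22, after 2.23 for the 2 acute-phase genes tested). The microglial, astrocyte, neuronal and oligodendrocyte identity lists have none past the threshold, beside 1.15% of all genes tested. The blue point is Cldn5.

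Genes known to respond to glucocorticoids, the steroid hormones of the stress response, were partly higher. Of 17 tested 4 rose (Mt1, Mt2, Arrdc2 and Cdkn1a) and none fell, beside 1.00% and 0.149% of all genes tested. The median was 0.89, and the fit to the 7 IgG1 libraries alone called 7. The metal-binding protein gene Mt2 was at 606, 662 and 808 CPM in PBS and at 1727, 2169, 2886 and 2232 CPM in LPS, so every LPS library had over 2 times the highest PBS library. Its log2 fold change was 1.70 ± 0.24 (edgeR adjusted p = 1.03e-05). Arrdc2 rose from 18.02 ± 3.48 to 53.4 ± 7.14 CPM and the cell cycle inhibitor Cdkn1a from 74.3 ± 18.5 to 184 ± 11.5 CPM. Fkbp5, a co-chaperone of the glucocorticoid receptor, was at 34.4, 29.4 and 77.7 CPM in PBS and 94.3, 106, 98.2 and 117 CPM in LPS. Its groups did not overlap, but the difference missed the threshold in the fit to all 28 libraries (edgeR adjusted p = 0.473) and passed it in the fit to the 7 IgG1 libraries alone (0.0331). Tsc22d3 had 54.7, 63.1 and 71.4 CPM in PBS and 89.3, 116, 111 and 108 CPM in LPS, with adjusted p of 0.192 and 0.0408 in the same 2 fits. Sgk1 missed the threshold (0.409).

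Genes on the lists for activated endothelium and reactive astrocytes rose in part. Of 11 tested endothelial activation genes 3 rose, the transglutaminase Tgm2, the leukocyte adhesion molecule Icam1 and the urokinase receptor Plaur. Of all genes tested 1.00% rose, and the list median was 0.38. Icam1 went from 5.40, 12.6 and 10.1 CPM to 21.3, 35.3, 32.7 and 25.9 CPM, a log2 fold change of 1.65 ± 0.31 (edgeR adjusted p = 0.000353), and Plaur did not pass without PBS replicate 1 (adjusted p = 0.151). Tgm2, Icam1 and Plaur also rose in the anti-HA and sorted-cell libraries. In LPS mice they stood lower in IgG1 than in anti-HA, by log2 differences in level of -4.61 for Icam1, -4.37 for Tgm2 and -4.24 for Plaur. The lists name known roles, and the cells that these RNAs came from were not tested. The selectin gene Selp, too low to be tested, had 0 reads in PBS and 16 in LPS, at least 4.18-fold higher by the same floor, and Sele had 0 reads in all 7 libraries. Vcam1 was at 4.20 to 13.98 CPM in PBS and 2.22 to 11.4 CPM in LPS. Tmem252, a membrane protein of little known function, was at 3.38, 5.26 and 8.54 CPM in PBS and 36.9, 67.4, 49.1 and 58.4 CPM in LPS, a log2 fold change of 3.20 ± 0.35 (edgeR adjusted p = 1.07e-09).

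Of 14 tested genes of reactive astrocytes 3 rose, Lcn2, the metalloreductase Steap4 and the intermediate filament gene Gfap, with a median of 0.97. Of 22 astrocyte identity genes none passed, where 1.15% of all genes tested did. Gfap had 43.2, 101 and 54.4 CPM in PBS and 160, 131, 153 and 84.3 CPM in LPS, so that LPS replicate 4 was below PBS replicate 2. Its log2 fold change of 1.02 ± 0.23 (edgeR adjusted p = 0.00798) missed the threshold without PBS replicate 1 or 3 (adjusted p up to 0.141), under DESeq2 (0.0583) and in the fit to the 7 IgG1 libraries alone (0.0993). Steap4 rose from 0.575 ± 0.533 to 12.4 ± 4.81 CPM, rose in anti-HA as well, and in LPS mice stood lower in IgG1 by a log2 difference in level of -2.12. Serpina3n, a common marker of reactive astrocytes, was at 8.10 to 9.46 CPM in PBS and 12.0 to 28.6 CPM in LPS without overlap, with an edgeR adjusted p of 0.0976.

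Cldn5, the claudin that seals tight junctions between brain endothelial cells, had the largest fall among genes at 10 CPM or more. It was at 44.6, 49.4 and 27.2 CPM in PBS and at 5.67, 7.22, 12.3 and 7.39 CPM in LPS, so the highest LPS library had less than 0.5 of the lowest PBS library. The log2 fold change was -2.36 ± 0.35 (edgeR adjusted p = 4.11e-06). It was the 1 gene of 12 tested on the endothelial identity list to be called, where 1.15% of all genes tested were. The list median was -0.40. The whole list summed to 508 to 943 CPM in PBS and 430 to 564 CPM in LPS, which overlap. The 4 tested pericyte and smooth muscle genes had a median of -0.64 with none called, and that list was at 104 to 122 CPM in PBS and 44.4 to 88.2 CPM in LPS. The part of vessel content in the fall of Cldn5 was not tested. The glucose transporter Slc2a1 was at 36.5 to 54.4 CPM in PBS and 49.6 to 54.5 CPM in LPS, and Mfsd2a, a lipid transporter of the barrier, was at 9.46 to 29.5 and 21.7 to 45.0 CPM; neither passed the test.

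The other 16 falls were smaller and each was lost in at least 1 fit that left out a library. Sox10, a transcription factor of the oligodendrocyte lineage, went from 78.3, 74.6 and 54.4 CPM to 38.3, 32.9, 47.7 and 33.3 CPM, a log2 fold change of -0.88 ± 0.22 (edgeR adjusted p = 0.0176, up to 0.177 without LPS replicate 2 or 4 or PBS replicate 1 or 2). Sox2, of neural progenitors and glia, went from 23.6, 34.7 and 28.7 CPM to 17.0, 13.6, 12.3 and 7.39 CPM, a log2 fold change of -1.17 ± 0.30 (edgeR adjusted p = 0.0245, up to 0.151 without LPS replicate 2 or 4 or PBS replicate 2 or 3). Under DESeq2 Sox2 missed the threshold (adjusted p = 0.0629), as did Cdh11, Mfap3l, Wdr55, Clk1, AI593442 and Neat1 (adjusted p from 0.05 to 0.219). DESeq2 called 136 genes, 95.6% of them higher. The falls of Gap43, Rgs4, Rgs2, Neat1, Clk1, Cdh11, Mfap3l, Trim44, Tusc3, Arxes2, Fcgrt, Wdr55, AI593442 and Gdi2 lay between -0.69 and -1.56 on the log2 scale. Of these, Rgs2 and Clk1 passed in 0 of the 7 fits that left out a library and Trim44 in 1. Neat1, Cdh11, Mfap3l, Fcgrt and Wdr55 passed in 2 of the 7. The fit to the 7 IgG1 libraries alone called 84 genes, 94% of them higher. Sox2, Mfap3l, AI593442, Wdr55, Fcgrt, Clk1, Neat1 and Gdi2 missed the threshold there (edgeR adjusted p from 0.0678 to 0.21). Gap43, Rgs4, Trim44, Tusc3 and Arxes2 were not followed singly in that fit or under DESeq2, so whether they held there is not given.

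The same comparison in the anti-HA libraries of the same experiment showed where the IgG1 response stood. The IgG1, anti-HA and sorted-cell libraries carry the same numbers 1 to 7, and whether a shared number means the same mouse is not given in the sources used here, so the sets may not be independent. There 3037 genes (26.5%) passed, 58.6% of them higher, a share that was 45.0% with DESeq2's size factors and 40.6% with total counts. Of the 115 genes that rose in IgG1, 100 (87.0%) also rose in the anti-HA libraries and none fell, where 15.5% of all genes tested rose, while 5.62% of the 1779 genes that rose in the anti-HA libraries did so in IgG1. In cells sorted from digested brain, 85 of the 115 (73.9%) rose, beside 17.0% of all genes tested there, where 34.5% were called. The other 30 were not called there, among them Csf3, Tmem252 and Steap4. The anti-HA libraries also held RNA of other cells. In LPS mice the neuronal, astrocyte and oligodendrocyte lists summed there to 3838 to 4680, 2890 to 3034 and 3871 to 4702 CPM. The cells behind a shared rise were not tested. The 15 rises not called in the anti-HA libraries included Asap3, Cmtm3, D430019H16Rik, Elk1, Iigp1, Ip6k2, Kndc1, Mkl1, Pakap, Akap2, Ppp1r18, Psmb8, Rinl and Synm. Akap2 and Pakap are overlapping genes with nearly the same counts and were counted here as 2.

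A test of the difference between the IgG1 and anti-HA responses called 982 genes (8.58%), 34.7% of them with the IgG1 value higher, a share that was 54.3% with DESeq2's size factors and 52.5% with total counts. Among the 115 rises, which were picked on the IgG1 side of that difference, it called 28 as smaller in IgG1, 6 as larger and 81 as neither, beside 5.60% and 2.98% of all genes. These counts were 24 and 10 with DESeq2's size factors and 24 and 9 with total counts. Socs3 rose by 2.36 in IgG1 and 5.92 in anti-HA, a difference of -3.56 ± 0.38 (edgeR adjusted p = 2.25e-10). Lcn2 rose by 3.54 and 6.46 (difference -2.92 ± 0.78, adjusted p = 0.0131), and Saa3 by 3.95 and 7.99. The Saa3 difference of -4.05 ± 1.15 (edgeR adjusted p = 0.0316) did not pass without PBS anti-HA replicate 2 or any 1 of the 3 PBS IgG1 libraries (adjusted p up to 0.141). The 6 genes with a larger rise in IgG1 under TMM scaling were Asap3, Cmtm3, Mkl1, Ppp1r18, Psmb8 and Rinl, with differences of 0.82 to 1.92. Of the 7 fits that left out an IgG1 library, the rises of Ppp1r18 and Rinl in IgG1 passed in 3. Those of Cmtm3 and Mkl1 passed in 5 and those of Asap3 and Psmb8 in 6. In LPS mice all but Mkl1, which was not called, stood lower in IgG1 than in anti-HA, by log2 differences in level of -1.17 to -4.11. Rsad2 rose by 4.16 and 3.93 and Cldn5 fell by 2.36 and 2.26, and neither difference was called.

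**Figure D4:**
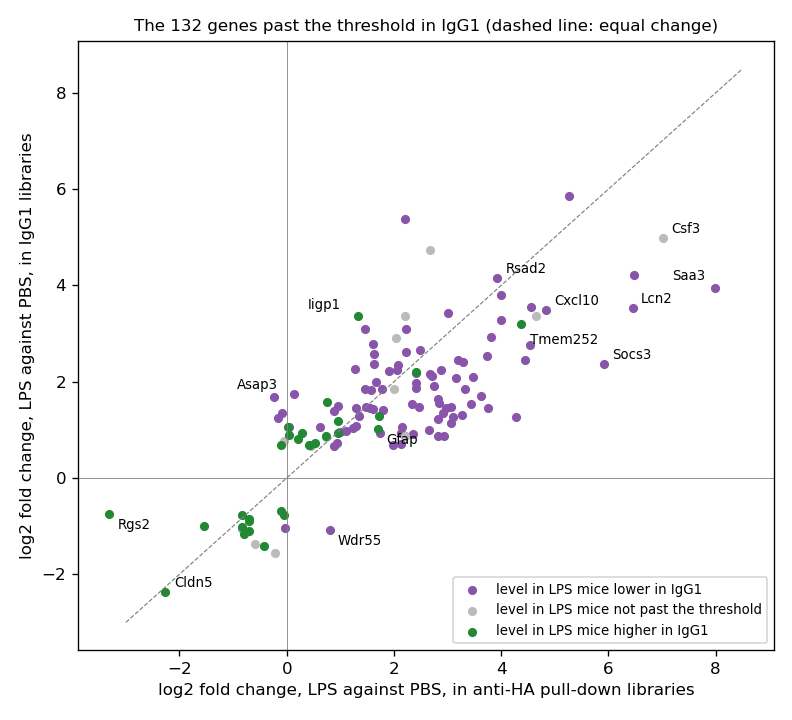
Log2 fold change between LPS and PBS for the 132 genes past the threshold in IgG1, in the anti-HA libraries (horizontal) and in the IgG1 libraries (vertical), coloured by whether the level in LPS mice was higher, lower or not called in IgG1 against anti-HA. Most rises lie in the upper right with a lower level in IgG1, Socs3, Saa3 and Lcn2 lie far below the dashed line of equal change, and Cldn5 lies close to it.

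Of the 19 microglial markers, 6 had a response that differed between the 2 kinds of library, higher in IgG1 in each, and 13 did not pass that test; 5.60% of all genes were called lower and 2.98% higher. Cx3cr1, the fractalkine receptor that drives the Cre, was at 47.3, 43.1 and 70.7 CPM in PBS and 44.7, 42.5, 34.1 and 47.3 CPM in LPS in IgG1, with an overlap and a log2 difference of -0.34 ± 0.20. In the anti-HA libraries it fell by 1.80, and the difference of 1.46 ± 0.26 passed (edgeR adjusted p = 3.51e-05). P2ry12, the purinergic receptor of microglial processes, was at 112, 72.5 and 137 CPM and 79.4, 85.8, 104 and 111 CPM in IgG1 and fell by 2.03 in anti-HA (difference 1.84 ± 0.28, edgeR adjusted p = 2.11e-06). None of the 19 microglial markers passed in IgG1, where the median was 0.02. With 1.15% of all genes tested called in IgG1, a count of none is near that share. In anti-HA 10 of the 19 fell and 1 rose with a median of -0.44, where 11.0% of all genes tested fell and 15.5% rose. Il1b went the other way, at 4.89 in anti-HA against 1.95 in IgG1, and that difference was not called (edgeR adjusted p = 0.0678).

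In the LPS mice, 88 of the 115 rising genes stood lower in IgG1 than in anti-HA and 17 stood higher, beside 37.6% and 35.3% of all genes tested, 73.0% being called in either direction. This comparison depends on the scaling. DESeq2's size factors moved the median over all genes from -0.02 to 0.64, the share of called genes that were higher in IgG1 from 48.4% to 68.1%, and the counts for the 115 to 80 lower and 22 higher. The 17 that stood higher in IgG1 included Akap2, Arrdc2, Crispld2, D430019H16Rik, Elk1, Gfap, Hr, Ifit1, Iigp1, Ip6k2, Klf15, Kndc1, Pakap, Rhou, Synm and Tmem252, and all 17 were called higher with DESeq2's size factors and with total counts as well. Gfap averaged 132 CPM in IgG1 and 43.1 CPM in anti-HA libraries of LPS mice, a log2 difference in level of 1.56 ± 0.21 (edgeR adjusted p = 7.33e-09). Tmem252 averaged 52.9 and 22.5 CPM and Iigp1 15.4 and 6.17 CPM. Synm, an intermediate filament protein found in astrocytes and muscle, averaged 91.5 and 23.6 CPM. Of the 17 falls, 12 stood higher in IgG1, with Cldn5 at a log2 difference in level of 1.04 ± 0.45 (edgeR adjusted p = 0.0341).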

How the data were processed

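Libraries were grouped by their labels. The authors deposited raw read counts per gene; the submitters' processing notes name bcl2fastq, HISAT 0.1.5, HOMER and the build mm9, without roles, and strandedness is not given in the sources used here. Counts were analysed with edgeR 4.0.16 in R 4.3.3: filterByExpr with a minimum count of 10, TMM scaling, and robust quasi-likelihood F tests on all 28 libraries (8 groups) of the experiment, with Benjamini-Hochberg adjustment over 11444 genes. CPM are TMM-scaled. The standard error is the log2 fold change divided by the square root of F. Intervals and floors cover counting error only.

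Named genes are the 12 largest rises and 10 largest falls among called genes with a mean of 10 CPM or more and no overlap, the 6 lowest p-values of each list described, the 6 largest differences from the anti-HA response on each side, and a list of known genes; unnamed gene models were skipped, and other genes were named after their values were seen. The members and lists were chosen with earlier results of these data known, and the comparison of levels in LPS mice was added after seeing the data. On counts simulated for the IgG1 comparison over 11444 genes, the test recovered 64 of 100 genes changed 2-fold and 96 of 100 changed 4-fold, with 5 false calls. The changed genes were drawn from those at 10 CPM or more in PBS IgG1, so recovery of lower genes was not tested. The 5 false calls hold for the simulated counts, and the error rate of the real comparison was not tested. No 2 replicates agreed within sampling noise (chi-square per degree of freedom 2.71 to 5.74). Alternatives were other scalings, no filter, DESeq2 1.42.0, a replicate block, subsets of libraries and leaving out each library.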

Additional observations from a re-analysis of the deposited data

Results flagged for a closer look

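Among 129 genes and gene lists, a library of the LPS group stood apart from the other 3 in 6. Chance alone gives about 1 in 20, and no library was apart in all of these. Rsad2 was lowest at 68.0 CPM and Parp14 lowest at 17.7 CPM, both in LPS replicate 4, and Ptgs2 was highest at 10.9 CPM in LPS replicate 3. The matrix remodelling list was lowest at 373.6 CPM in LPS replicate 2, the iron handling list highest at 3891 CPM in LPS replicate 4, and the oxidative phosphorylation list highest at 21950 CPM in LPS replicate 3.

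The response to LPS differed between the IgG1 and anti-HA libraries by edgeR's test of that difference for 49 genes, out of the 132 called in IgG1, a list of known genes and those picked for the largest differences. The differences are given as IgG1 minus anti-HA on the log2 scale, and a positive value can mean a fall in anti-HA that was not seen in IgG1. They were negative for 28 genes that rose in both. Those described in the report were Saa3 (-4.05), Socs3 (-3.56), Ier3 (-3.01), Lcn2 (-2.92), Stat3 (-2.07), Cdkn1a (-1.96), Ptpn1 (-1.96), Mt2 (-1.93), Cebpb (-1.90), Mt1 (-1.59), Cd14 (-1.57), Il4ra (-1.50), Stat2 (-1.32), Icam1 (-1.17), Myd88 (-1.09), Nfkbia (-0.99) and Cebpd (-0.83). The others were Sbno2 (-2.30), Pfkfb3 (-1.92), Smim3 (-1.85), Cd83 (-1.65), Bach1 (-1.57), Jdp2 (-1.45), Susd6 (-1.43), Rnd1 (-1.33), Mapkapk2 (-1.29), Runx1 (-1.28) and Gadd45g (-1.19). They were positive for 6 genes that rose in IgG1 and were not called in anti-HA, Rinl (1.92), Asap3 (1.62), Cmtm3 (1.43), Ppp1r18 (1.41), Psmb8 (1.02) and Mkl1 (0.82). They were negative for Sphk1 (-4.16), Marcksl1 (-4.07), Pim1 (-3.75), Spp1 (-3.52) and Slc2a1 (-2.66), which rose in anti-HA and were not called in IgG1, with IgG1 log2 values between -0.04 and 0.47. They were also positive for Gpr34 (3.17), Asb2 (2.90), Slc29a3 (2.58), Rgs2 (2.56), Lhfpl2 (2.55), Rtn4rl1 (2.49), P2ry12 (1.84) and Cx3cr1 (1.46). All of these fell in anti-HA. Rgs2 was called lower in IgG1 too, but passed in 0 of the 7 fits that left out an IgG1 library. The others were between -0.56 and 0.35 in IgG1 and not called. Wdr55 (-1.88) was lower in IgG1 and higher in anti-HA, at log2 values of -1.08 and 0.80. Fcgrt (-1.01) was lower in IgG1 and at -0.02 in anti-HA. The falls of Wdr55 and Fcgrt in IgG1 each passed in 2 of the 7 fits that left out an IgG1 library. The causes of these differences were not tested.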

How the results depend on the processing

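The count of genes called between LPS and PBS in IgG1 was 132. It was 213 without the filter on low counts, when 17983 genes were tested, and 84 in the fit to the 7 IgG1 libraries alone, and it ranged from 86 to 172 when 1 library was left out. With other scalings it was 126 and 152, and with DESeq2 136, of which 110 were among the 132. The counts for the anti-HA, sorted-cell, difference and level comparisons stayed within 1.5 times under every alternative run.

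With the replicate number as a block, 160 genes were called in IgG1, 120 of them among the 132; the numbers do not pair these libraries, since same-numbered LPS and PBS libraries had correlations of -0.066, 0.045 and -0.015. With the mouse number as a block over 14 IgG1 and anti-HA libraries, the difference in response was called for 1110 genes against 982; the correlations of same-numbered libraries there were -0.023 to 0.143. Under the replicate block Tmem119 turned to -0.058 and Hbb-b1 to -0.23, and with total counts Tmem119 turned to -0.01. None of these was called.

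Genes that were not called in IgG1 and whose sign turned when 1 library was left out ranged as follows on the log2 scale. Asb2 was at -0.16 to 0.47, Rtn4rl1 at -0.039 to 0.082, Sphk1 at -0.13 to 0.81, Pim1 at -0.046 to 0.56, Spp1 at -0.26 to 0.56 and Vcam1 at -0.72 to 0.27. Fos was at -0.35 to 0.049, Tmem119 at -0.32 to 0.19, P2ry12 at -0.40 to 0.012, S100a9 at -0.37 to 0.47 and Hbb-b1 at -0.26 to 0.41. No called gene among those named turned sign. Depth limits the low genes: with 610257 to 1183677 counts a library, a gene at 1 CPM rests on about 1 read. Why calls were lost was not tested.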

Other observations

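On the endothelial identity and barrier transport lists 25 genes were too low to be tested. Their reads were summed over each group of IgG1 libraries and compared with exact 95% intervals that cover counting error only. The interval of the ratio of LPS to PBS per library size lay below 1 for 6 genes, above 1 for 2 and held 1 for 14. Of the other 3, Sox17 had 10 reads in PBS and 0 in LPS, Ocln had 0 and 4, and Slc16a4 had none. The same count over all genes too low to be tested was not made, so these counts have no background to be judged by. Replicates varied beyond counting error (chi-square per degree of freedom 2.71 to 5.74), so the intervals may be too narrow. The genes described here were picked after their values were seen. The organic anion transporter Slco1a4 had 18 reads in PBS and 1 in LPS, a ratio per library size of 0.0436 (0.00105 to 0.276). The receptor phosphatase Ptprb had 35 and 13 reads (ratio 0.291, 0.141 to 0.564), and the transporters Slc22a8 and Abcb1a had 34 and 21 (0.484, 0.267 to 0.859) and 20 and 11 (0.431, 0.187 to 0.944). Cdh5, the cadherin of endothelial junctions, had 6 and 21 reads (2.75, 1.07 to 8.31), and the transcription factor Erg had 2 and 12 (4.71, 1.05 to 43.3). Kdr had 12 and 4 reads (0.261, 0.0615 to 0.863) and Vwf had 16 and 8 (0.392, 0.145 to 0.971). On the reactive astrocyte list the pentraxin gene Ptx3 had 0 reads in PBS and 13 in LPS, at least 3.40-fold higher with 3 reads in the PBS group as the floor.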
